A study of Saccharomyces cerevisiae with 18 samples.

Results

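The genes described here are 6 chaperone genes of Saccharomyces cerevisiae that act on aggregated protein, out of 6218 genes on both array layouts. They are the disaggregase HSP104 (YLL026W), the sorting factor BTN2 (YGR142W), the small heat shock protein genes HSP42 (YDR171W) and HSP26 (YBR072W), and the mitochondrial chaperone genes HSP78 (YDR258C) and MDJ1 (YFL016C). Of these, 5 were found by symbol in the gene annotation of the scanner files, and BTN2 was found by its systematic name, since its symbol is not used there. The family was chosen by function and by the log2 ratios of these arrays in the first minutes, above all the high BTN2 value in YPD, so values up to 16 min against dormant spores are given as a description without a test.

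Spores of the diploid strain Y55 (HO gal3, with MAL and SUC genes), freed of vegetative cells, were placed in YPD, a rich medium with 2% glucose, or in 2% glucose alone, and were collected at 9 times: an early series at 0, 4, 8 and 16 min and a late series at 32, 48, 64, 96 and 128 min. The 18 combinations of medium and time have 3 arrays each, except glucose at 0 min with 2, which gives 27 arrays in YPD and 26 in glucose, all on slides of their own. The methods call the replicates biological and the labels also speak of repeat scans without saying which, so p-values measure the spread between arrays, which may be partly technical. On every array, RNA of the time point was labelled with Cy5 and RNA of dormant spores with Cy3, with no dye swap, so a log2 ratio of Cy5 over Cy3 of 1 is a level 2-fold above that of dormant spores and a gene-specific dye effect would stay in it. The groups share strain, array type and reference RNA and differ in medium and time alone, as far as the labels say. RNA was taken from whole spore populations and each array was centred on its own genes, so a transcript carried by fewer spores and less transcript in each spore cannot be told apart.

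Proteins that have lost their fold form aggregates, which yeast cells collect at a few deposit sites and later dissolve. Hsp42 and Btn2 gather misfolded proteins into such deposits, Hsp26 coats unfolding proteins and keeps them accessible, and Hsp104, a ring-shaped ATPase, pulls single chains out of an aggregate together with Hsp70 and its J-domain partners. In the mitochondrial matrix Hsp78, a relative of Hsp104, does this work, and Mdj1 is the J-domain partner of the matrix Hsp70. HSP26, HSP104 and other stress genes are known to be transcribed during sporulation, and a spore carries part of its transcripts through dormancy.

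In the first 16 min the 6 genes separated into distinct courses. BTN2 was the highest of them on all 17 arrays between 4 and 16 min on which it had a value. HSP104 was moderately above dormant spores at 4 and 8 min, HSP42 was high at 16 min in both media, HSP26 was below dormant spores by 16 min in YPD, and HSP78 stayed near the dormant level in YPD and stood at -0.52 and -0.66 at 4 and 8 min in glucose. Against 0 min, the 5 late times in YPD gave 18 calls in 29 tests of members, with HSP104 and HSP26 lower and BTN2 and HSP42 higher, where 44.4% to 51.6% of all genes were called. With quantification day as a block 6 of 23 were called. The same times in glucose gave 9 calls in 30 tests, where 18% to 25.8% of all genes were called, and the 9 became 0, 1 or 19 without glucose replicate 2, 1 or 3.

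**Figure D1:**
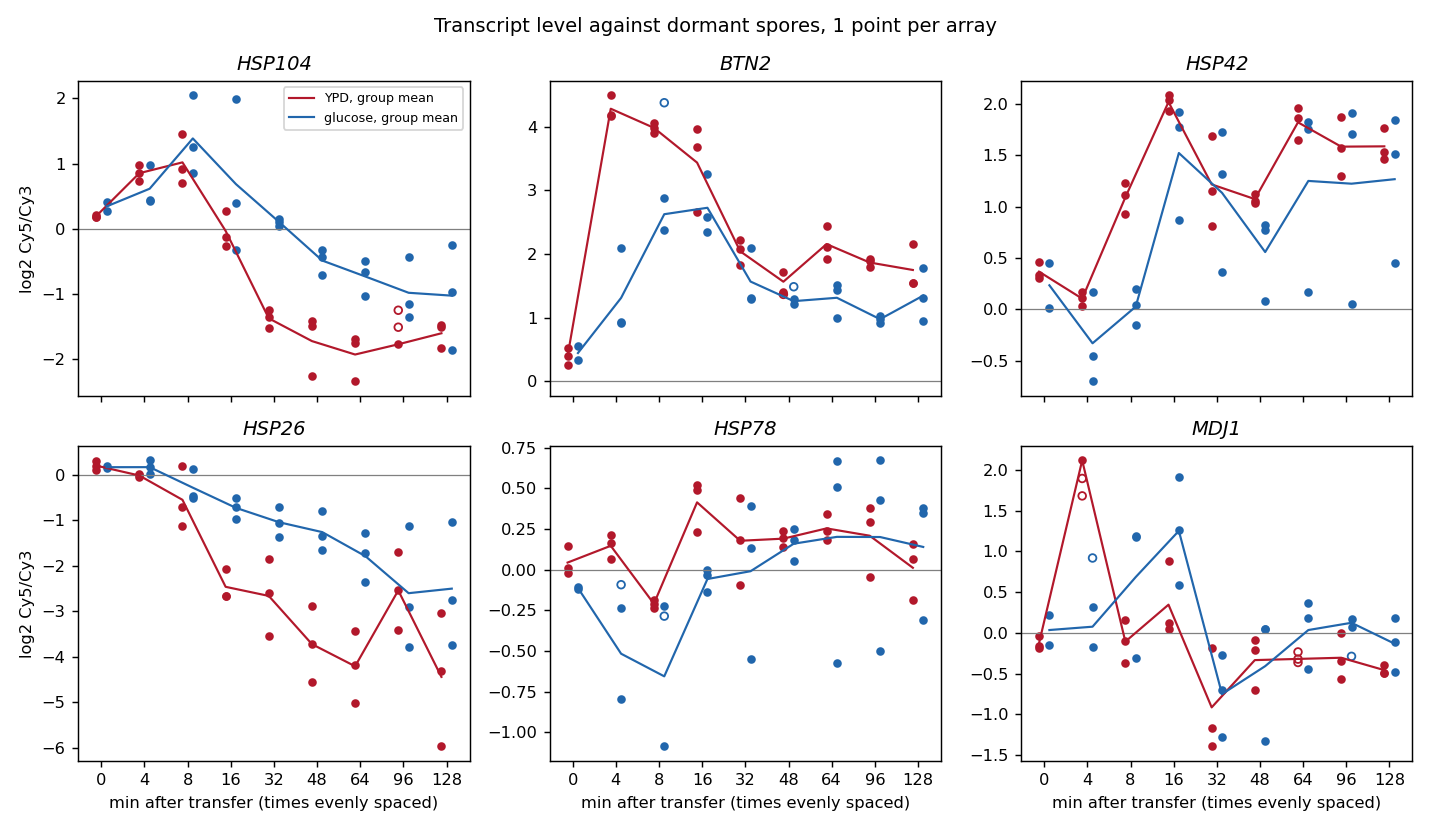
Log2 Cy5/Cy3 of each gene against minutes after transfer (times evenly spaced), 1 filled point per array in YPD (red) and glucose (blue), with lines through the group means. Open circles are arrays on which every spot of the gene was marked poor or by hand, shown at the value with all spots and left out of the means. BTN2 peaks at 4 min in YPD at 4.28 and at 16 min in glucose at 2.73, and HSP26 falls to -4.45 in YPD at 128 min.

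The arrays were not uniform, and this touches several members. Slide numbers in the file headers fall into 4 series: the first (11 arrays) holds YPD at 0 and 8 min and 5 glucose arrays, the second and the third (8 and 23 arrays) hold the other YPD times and most glucose arrays from 16 min on, and the fourth (11 arrays, all in glucose) carries a second layout. Although the Cy3 channel is labelled as the same dormant-spore RNA throughout, its mean log2 signal across 6218 genes correlated at only 0.702 between the first series and those of the same layout, against 0.903 for the fourth. All differences from 0 min at 32 min or later in YPD therefore compare different slide series, and values with slide series as a block, an alternative added after seeing the data, are given where a call was lost with them. So are values with the day of quantification as a block, which could not be fitted at 32 min in YPD. Spore genes of the reference were found in Cy3: SPS100 and SPS4, of the spore wall and late sporulation, were above background on 53 of 53 arrays, SPS19 was above it on 51, SSP1 and SMK1 on 40 and 38, SSP2 on 20, and DIT1, DIT2, CDA2 and GAS4 on 7 to 12. Of 6 cell cycle genes, 5 were above background in Cy3 on 29 to 53 arrays and CLN2, a G1 cyclin gene, on 6.

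Of 636 spots of the members, 97 were marked poor or by hand and left out, which left 14 of 318 values missing. Both dyes were above background (by 2 SD of the local background) on all 53 arrays for HSP104, HSP26, HSP78 and MDJ1. The Cy3 signal of BTN2 passed it on 45 arrays and that of HSP42 on 46, so their ratios rest on a dim reference on the remaining arrays. No spot of a member was saturated. With no spot left out, the largest shift of a value was 1.30, for HSP42, and it was 0.323 or less for each of the other 5 genes.

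BTN2 encodes a factor that sorts misfolded proteins into deposits next to the nucleus and vacuole and is a known target of the heat shock factor Hsf1. At 0 min in YPD its log2 ratios were 0.26, 0.53 and 0.40, and at 4 min they were 4.17, 4.49 and 4.18, a mean of 4.28 ± 0.18 (SD, n = 3), or 19.4-fold the dormant level. All 3 arrays at 4 min lay far above all 3 at 0 min, and at 8 min the values of 4.05, 3.90 and 3.98 gave BTN2 rank 4 of 6184 genes. At 16 min the arrays spread from 2.66 to 3.96, and from 32 min on all values lay between 1.41 and 2.44. The size of the early value depends on the reference: Cy3 was above background on 1 of 3 arrays at 4 min, and without background subtraction the mean was 3.03.

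In glucose BTN2 had lower values and a later maximum. Its 2 arrays at 0 min read 0.56 and 0.33, and at 4 min the arrays read 2.09, 0.91 and 0.94, above both arrays at 0 min and below all 3 YPD arrays of the same minute. At 8 min the measured arrays read 2.88 and 2.37, while the array left out for its spots read 4.37 with all spots kept. At 16 min the values were 2.35, 2.57 and 3.25, and from 32 min on they lay between 0.92 and 2.10. BTN2 stood at rank 15 of 6203 genes at 4 min in glucose and at rank 3 of 6206 at 8 min, so it was among the highest genes in this medium as well.

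**Figure D2:**
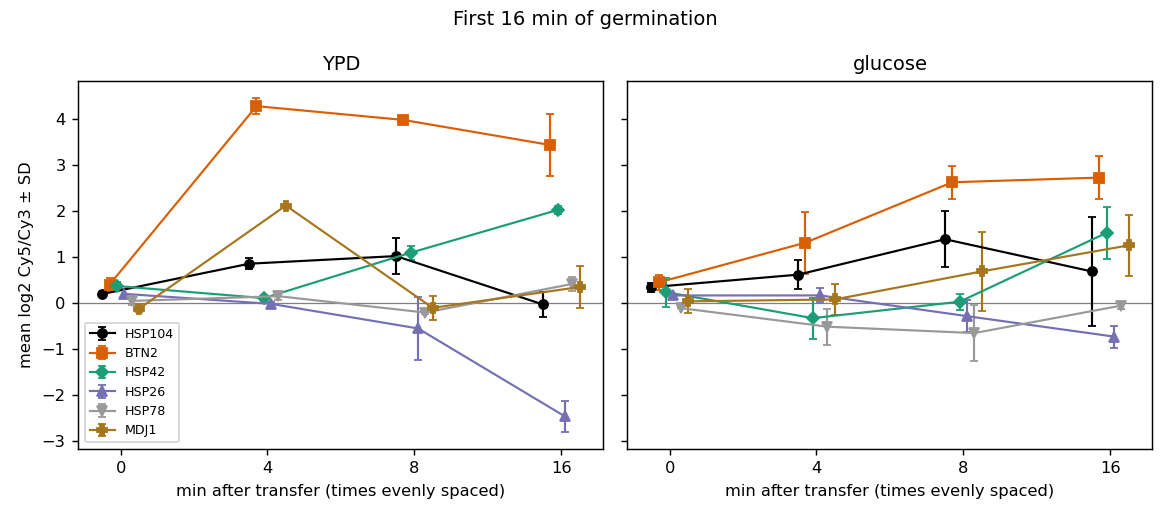
Mean log2 Cy5/Cy3 of the 6 genes at 0 to 16 min (times evenly spaced) in YPD (left) and glucose (right), with the SD over arrays as bars; MDJ1 at 4 min in YPD is 1 array and has none. BTN2 stands at 4.28 at 4 min in YPD against 1.31 in glucose, while HSP26 and HSP42 lie within 0.33 of 0 in both media at that time.

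The gap between BTN2 and the next member was wider in YPD than in glucose at 4 and 8 min on every array with a value. In YPD it ran from 2.37 to 3.45 on the log2 scale over the 3 arrays at 4 min, from 2.45 to 3.05 at 8 min and from 0.73 to 1.87 at 16 min. In glucose the gap ran from 0.47 to 1.11 at 4 min, from 1.12 to 1.71 on 2 arrays at 8 min and from 0.43 to 1.26 at 16 min. On none of these 17 arrays did another member reach BTN2. The next gene was HSP104 or MDJ1 at 4 min and HSP42 at 16 min, except HSP104 on the second-layout glucose array. At 4 min in YPD MDJ1 had a value only on the array with the gap of 2.37. With all spots kept its mean over the 3 arrays was 1.90, and the gaps on the other arrays would be narrower with it counted. The glucose array at 8 min without a BTN2 value is not counted. With all spots kept, the BTN2 mean at 8 min in glucose was 3.20 instead of 2.62.

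The media were then compared at the same minute, with limma and Benjamini-Hochberg adjustment over all genes. At 4 min the mean of BTN2 in YPD lay 2.97 above that in glucose, without overlap of the 3 and 3 arrays, where 8.95% of 6191 genes were called in either direction. Its change from 0 min was larger in YPD by 3.02, where 1.57% of 6127 genes were called, and no other member was called in 47 such tests of changes. At the other 7 times, in order from 8 to 128 min, 0.0816%, 3.75%, 4.59%, 2.45%, 5.67%, 3.11% and 2.04% of genes were called. Since BTN2 was chosen for its high early values in YPD, its differences at 4 and 8 min are a description, with no test.

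After 4 min the media differences of BTN2 were smaller. At 8 min the mean in YPD lay 1.36 above that in glucose, 0.74 with all spots kept, 0.96 with print-tip loess and 1.61 within the first slide series, with 3 arrays against 1. At 64 min the difference was 0.84 (adjusted p = 0.0278), without overlap, and the call was lost without YPD replicate 2 or 3 (0.87 and 0.70, adjusted p = 0.0602 and 0.163), without glucose replicate 3 (0.69, adjusted p = 0.102) and with day as a block (0.95, adjusted p = 0.245). It was lost as well with all spots kept (0.77, adjusted p = 0.0978). The same held without background subtraction and with print-tip loess or median intensities (adjusted p = 0.206, 0.111 and 0.0702). At 96 min the difference was also called (adjusted p = 0.0243), but no YPD array had a Cy3 signal above background, so its size is not given. That call was lost without YPD replicate 1 or 3 or glucose replicate 2 (adjusted p = 0.0955, 0.0856 and 0.0529). It was also lost without background subtraction and with print-tip loess (adjusted p = 0.364 and 0.26). The differences at 16, 32, 48 and 128 min, between 0.31 and 0.71, did not pass the threshold, and their intervals reached up to 1.28.

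BTN2 in YPD was higher than at 0 min at all 5 late times, in order by 1.64, 1.17, 1.76, 1.47 and 1.35 (adjusted p = 6.58e-06, 0.00249, 1.84e-06, 4.14e-05 and 0.000138), and no late array overlapped those at 0 min. At 96 min, where no Cy3 signal of BTN2 was above background, the difference of 1.47 rests on an unmeasured reference. The level there is at least about 3.61-fold that of dormant spores. That bound is approximate, since the reference was set to the dimmest signal that passed background, or to that of BTN2 itself where higher. With slide series as a block the differences at 32 and 48 min were 1.35 and 0.88 and were no longer called (adjusted p = 0.109 and 0.419). Without YPD replicate 3 the difference at 48 min was 1.01 (adjusted p = 0.0835). With day as a block the differences at the last 4 times were -0.081, 0.97, 0.485 and 1.295, and none was called (adjusted p = 0.96, 0.233, 0.574 and 0.141). In glucose BTN2 rose at 32, 64 and 128 min, by 1.12, 0.87 and 0.90 (adjusted p = 0.0103, 0.0388 and 0.0299). Without glucose replicate 2 the differences were 0.74, 0.65 and 0.99 and none was called (adjusted p = 0.351, 0.353 and 0.134), and the same held with day as a block (0.546, 0.364 and 1.017, adjusted p = 0.506, 0.618 and 0.125). The last 2 were also lost without glucose replicate 1 (0.93 and 1.04, adjusted p = 0.137 and 0.0839), that at 128 min without glucose replicate 3 (0.68, adjusted p = 0.101), and that at 64 min, with its value kept, without YPD replicate 1 or 3 (adjusted p = 0.0545 and 0.0585). Both calls, at 64 and 128 min, were lost with all spots kept (0.871 and 0.877, adjusted p = 0.0776 and 0.0728). Slide series as a block gave 0.911 and 0.945, also not called (adjusted p = 0.0833 and 0.0646). Neither was called without background subtraction or with median centring, print-tip loess or median intensities (adjusted p from 0.051 to 0.146).

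HSP42 encodes a small heat shock protein that collects misfolded proteins at deposits in the cytoplasm and is made in unstressed cells as well. In YPD its log2 ratios at 4 min were 0.17, 0.04 and 0.11, at 8 min 1.23, 1.11 and 0.93, and at 16 min 2.09, 1.94 and 2.04. The groups at these 3 times did not overlap, and HSP42 stood at its 16 min maximum of 2.02 ± 0.08 (SD, n = 3) when BTN2 was already below its own. In glucose the values at 8 min were 0.04, -0.15 and 0.20, and at 16 min they were 1.92, 1.77 and 0.88. The lowest of these, on the second layout, is 2.18 with all spots kept.

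At 64 min in YPD the HSP42 arrays read 1.65, 1.86 and 1.96 and at 128 min 1.47, 1.53 and 1.77, against 0.30, 0.46 and 0.34 at 0 min. The gene was higher than at 0 min by 1.46, 1.22 and 1.22 at the last 3 times (limma, adjusted p = 0.00111, 0.00656 and 0.00684), without overlap. With slide series as a block the differences at 96 and 128 min were each 0.49 (adjusted p = 0.218 and 0.217), with day as a block they were 0.015 and 0.484 (adjusted p = 0.984 and 0.48), without YPD replicate 3 they were 1.21 and 1.11 (adjusted p = 0.0634 and 0.0934), and without YPD replicate 1 that at 96 min was 1.04 (adjusted p = 0.107). At 32 and 48 min the differences of 0.85 and 0.71 did not pass the threshold (adjusted p = 0.055 and 0.117).

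In glucose the late HSP42 values split by array layout. At 64 min the first 2 replicates read 1.83 and 1.76 and the third, on the second layout, 0.17, and at 96 min they read 1.71, 1.92 and 0.05. The second-layout array was the lowest at all 6 times from 16 min on, by 1.24 on average, a difference that ranks 17th from the bottom of 6188 genes. No late difference from 0 min was called in glucose (adjusted p from 0.0608 to 0.645, intervals from -0.51 to 1.87). Without glucose replicate 3 the differences at 64, 96 and 128 min were 1.56, 1.58 and 1.44 and all passed the threshold. With slide series as a block the difference at 32 min was 0.79 and was called (adjusted p = 0.00537). Between media HSP42 did not pass the threshold at any time, with a largest difference of 1.07 at 8 min (95% interval 0.32 to 1.82, adjusted p = 0.102), which was 0.716 and called with day as a block (adjusted p = 0.0496). Within the third slide series the media differed by 0.03 at 64 min and by -0.09 at 128 min.

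HSP26 encodes a small heat shock protein that forms hollow assemblies and accumulates in stressed, starved and sporulating cells. Its values at 4 min in YPD were -0.02, 0.02 and -0.06, close to 0, the dormant level, on all 3 arrays. At 8 min they were -0.71, 0.19 and -1.14, and at 16 min -2.66, -2.07 and -2.67, so all 3 arrays at 16 min were below every earlier one. At 64 min they read -3.44, -4.18 and -5.02 and at 128 min -3.04, -4.32 and -5.98. The arrays of 128 min spread widely, and their mean of -4.45 ± 1.47 (SD, n = 3) is 4.59% of the dormant level, rank 28 from the bottom of 6169 genes.

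The fall of HSP26 against 0 min in YPD passed the test at all 5 late times, with differences of -2.86, -3.92, -4.41, -2.74 and -4.64 in order (limma, adjusted p = 5.61e-05, 3.65e-07, 1.98e-08, 0.000115 and 8.15e-09). With slide series as a block the differences at 32, 48 and 96 min were -1.79, -2.85 and -0.999, and these 3 calls were lost (adjusted p = 0.198, 0.0522 and 0.358). With day as a block those at 48, 96 and 128 min were -3.265, -0.936 and -2.122 and were not called either (adjusted p = 0.0648, 0.561 and 0.226). The value at 96 min, from -1.69 to -3.41 on its arrays, lay above those at 64 and 128 min, a step that was not tested.

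In glucose HSP26 stayed high for longer. Its arrays read 0.01, 0.17 and 0.31 at 4 min, -0.71, -0.98 and -0.51 at 16 min, and -2.75, -3.74 and -1.03 at 128 min. The third replicate, on the second layout, was the highest of the 3 at 16, 48, 64, 96 and 128 min and the lowest at 32 min. Over these 6 times it lay 0.96 above the mean of the first layout on average, rank 6142 from the bottom of 6188 genes. HSP26 was lower than at 0 min at 64, 96 and 128 min, with differences of -1.96, -2.77 and -2.67 (adjusted p = 0.0205, 0.001 and 0.00155), without overlap of the groups. All 3 calls were lost without glucose replicate 2 (-1.97, -2.15 and -2.03, adjusted p = 0.14, 0.102 and 0.125), without glucose replicate 1 (-1.69, -2.64 and -2.57, adjusted p = 0.274, 0.0618 and 0.0694), with slide series as a block (-0.85, -1.67 and -1.57, adjusted p = 0.409, 0.0661 and 0.0851) and with day as a block (-0.88, -1.693 and -1.117, adjusted p = 0.536, 0.141 and 0.481).

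Between media HSP26 was lower in YPD at 16, 32, 48 and 64 min, with differences of -1.74, -1.62, -2.46 and -2.42 (limma, adjusted p = 0.0258, 0.035, 0.00243 and 0.00167) and no overlap of the arrays. In these minutes the transcript stood between 5.40% and 18.1% of the dormant level in YPD and between 28.9% and 60.3% in glucose. The media differed by 0.06 at 96 min (95% interval -1.09 to 1.21). The difference of -1.94 at 128 min was called (adjusted p = 0.0208) although the arrays overlapped. Within the same slide series, from 3 arrays against 2, the differences at 16, 48 and 64 min were -1.62, -2.22 and -2.16 without overlap. No slide series holds both media at 32 min.

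The HSP26 calls between media at 48 and 64 min held without any single replicate but were lost with day as a block (-2.591 and -2.702, adjusted p = 0.216 and 0.0661). At 16 min the call was lost without YPD replicate 1 or 2 or glucose replicate 1 (-1.64, -1.93 and -1.72, adjusted p = 0.071, 0.0527 and 0.107), with print-tip loess (-0.69, adjusted p = 0.571) and with slide series as a block (-1.27, adjusted p = 0.0711). Day as a random block gave -1.60 at 16 min, also not called (adjusted p = 0.191). At 32 min it was lost without YPD replicate 2 or 3 (-1.65 and -1.18, adjusted p = 0.102 and 0.155), without glucose replicate 1 or 2 (-1.45 and -1.63, adjusted p = 0.182 and 0.0655) and with slide series as a block (-0.67, adjusted p = 0.692). At 128 min it was lost without YPD replicate 2 (adjusted p = 0.0823) or 3 (-1.18, adjusted p = 0.244), without glucose replicate 1 or 3 (-2.06 and -1.20, adjusted p = 0.072 and 0.191) and with slide series or day as a block (-1.48 and -1.204, adjusted p = 0.0522 and 0.205). The call at 32 min was also lost without background subtraction and with median centring, print-tip loess or median intensities (adjusted p from 0.0509 to 0.187). Layout as a block and day as a random block gave adjusted p = 0.0526 and 0.291 there. Median centring and print-tip loess also removed the call at 128 min (adjusted p = 0.189 and 0.345).

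HSP104 encodes the disaggregase of cytosol and nucleus, on which survival of severe heat depends. In YPD its log2 ratios were 0.18, 0.19 and 0.21 at 0 min, 0.98, 0.85 and 0.73 at 4 min, and 0.70, 1.45 and 0.91 at 8 min. All arrays at 4 and 8 min were above those at 0 min, with means of 0.85 ± 0.12 and 1.02 ± 0.39 (SD, n = 3), or 1.81-fold and 2.03-fold. At 16 min the arrays read 0.28, -0.12 and -0.26, around the dormant level. In glucose the values were 0.98, 0.44 and 0.43 at 4 min, 2.05, 0.86 and 1.25 at 8 min and 0.40, -0.33 and 1.99 at 16 min. The glucose arrays at 16 min spread over more than 2 log2 units, the highest being the second-layout array. From 16 min on the second-layout array lay above the mean of the first layout at all 6 times. The average difference was 0.76, rank 6068 from the bottom of 6188 genes.

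From 32 min on HSP104 was below dormant spores on every YPD array, between -1.25 and -2.34. Its differences from 0 min were -1.57, -1.92, -2.12, -1.97 and -1.80 in order, with adjusted p = 0.000346, 2.99e-05, 3.88e-06, 0.00142 and 6.91e-05 (limma), and no array overlapped those at 0 min. The value at 96 min comes from 1 array, assumed to vary like the other groups, and with all spots of the 3 arrays kept the difference was -1.59 (adjusted p = 0.000112). With slide series as a block the differences at 96 and 128 min were -1.05 and -0.88 and were not called (adjusted p = 0.128 and 0.124), nor was that at 128 min with day as a block (-1.122, adjusted p = 0.163). In glucose HSP104 fell at 64, 96 and 128 min, with differences of -1.07, -1.32 and -1.37 (adjusted p = 0.0429, 0.0111 and 0.0093), with arrays between -0.25 and -1.85. None of these 3 was called without glucose replicate 1 (-0.85, -1.17 and -1.32, adjusted p = 0.364, 0.174 and 0.122), without glucose replicate 2 (-1.18, -1.21 and -1.02, adjusted p = 0.101, 0.0868 and 0.159) or with slide series as a block (-0.44, -0.69 and -0.73, adjusted p = 0.463, 0.195 and 0.163). With day as a block those at 64 and 128 min were -0.875 and -0.781 (adjusted p = 0.124 and 0.24). That at 64 min, with its value kept, was also lost without YPD replicate 1, 2 or 3 (adjusted p from 0.061 to 0.0715). It was lost as well without background subtraction or with plain subtraction (adjusted p = 0.0604 and 0.0635). Day and slide series as random blocks gave -0.94 and -0.69 for it, also not called (adjusted p = 0.0513 and 0.182).

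YPD held less HSP104 than glucose at 32, 48 and 64 min, with differences of -1.48, -1.24 and -1.20 (adjusted p = 0.00223, 0.0183 and 0.0131). At 32 min the YPD arrays read -1.35, -1.52 and -1.25 and the glucose arrays 0.16, 0.04 and 0.11, without overlap. No slide series and no quantification day holds both media at 32 min. From the arrays of that minute, medium cannot be told apart from slide series or day, and leaving out a replicate does not change this. The call at 32 min held without any single replicate and was lost with slide series as a block (-1.34, adjusted p = 0.0907). Those at 48 and 64 min were lost without YPD replicate 2 (-0.97 and -0.99, adjusted p = 0.228 and 0.115), and that at 48 min also without YPD replicate 3 or glucose replicate 1 (-1.35 and -1.21, adjusted p = 0.0522 and 0.0771). Both were lost with day as a block (-1.086 and -1.345, adjusted p = 0.288 and 0.0525). At 128 min the difference was -0.58 (95% interval -1.30 to 0.14), and within the third slide series it was -0.19, with overlapping arrays.

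**Figure D3:**
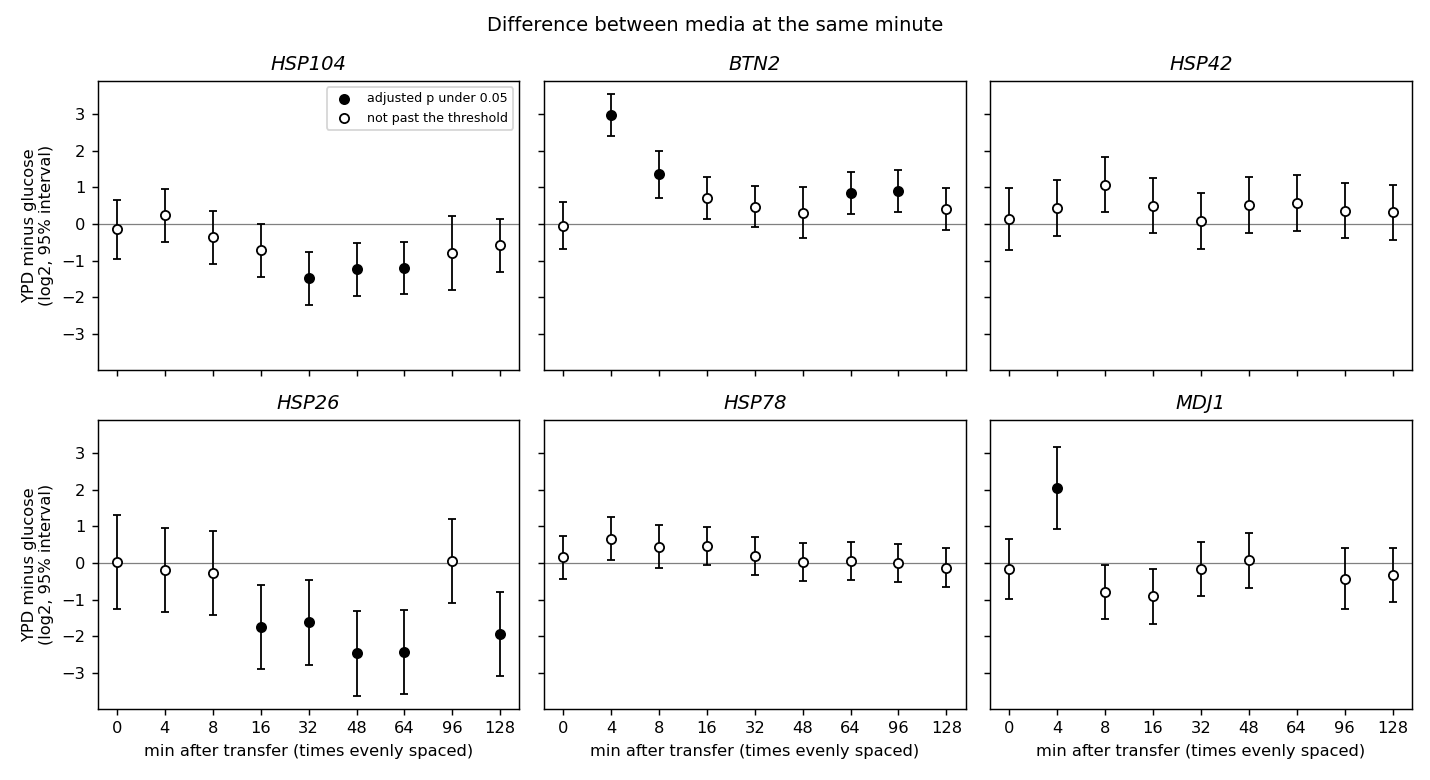
YPD minus glucose on the log2 scale for each gene at the 9 times (evenly spaced), with 95% intervals from limma; filled points have an adjusted p under 0.05. BTN2 is high at 4 min (2.97, the value it was chosen for), HSP26 is low from 16 to 64 min (down to -2.46), HSP104 is low from 32 to 64 min, and the intervals of HSP78 stay within 1.25 of 0.

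HSP78 encodes the disaggregase of the mitochondrial matrix, a relative of Hsp104. Its group means stayed between -0.66 and 0.41 in both media, so it was the flattest member, with an SD of 0.27 over the 18 group means. At 4 min in YPD its arrays read 0.16, 0.07 and 0.21 and in glucose -0.80 and -0.24, the third being left out. No HSP78 difference from 0 min was called, with intervals from -0.56 to 0.73 in YPD and from -0.48 to 0.90 in glucose, and none was called between media, the largest being 0.66 at 4 min (95% interval 0.08 to 1.25, adjusted p = 0.153). In glucose the second-layout array was the lowest at all 6 times from 16 min on, by 0.66 on average, with 0.51, 0.67 and -0.57 at 64 min.

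MDJ1 encodes the J-domain protein of the matrix, which hands unfolded chains to the Hsp70 Ssc1. At 4 min in YPD only 1 array kept its spots, at 2.12, and with all spots kept the 3 arrays read 1.90, 2.12 and 1.68. At 8 min in YPD the arrays read 0.15, -0.10 and -0.37, so the high value was absent 4 min later. In glucose it read 1.19, 1.17 and -0.30 at 8 min and 1.91, 1.26 and 0.58 at 16 min. The arrays of YPD at 0 and 8 min and the lowest array of glucose at 8 min are all of the first slide series.

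The Cy3 signal of MDJ1 moved with the slides. Scaled to the median gene of each array, it lay between 13.4 and 28.1 on the 11 arrays of the first series and between 1.09 and 4.74 on the other 42, with no overlap. The shift of 3.28 on the log2 scale is rank 55 of 6218 genes, whose median was -0.34. Between media MDJ1 was higher in YPD by 2.04 at 4 min (1 array against 2), by 1.57 with all spots kept and by 0.89 with slide series as a block. The family was chosen with its early values known, so these differences at 4 min are a description, with no test. Apart from that between media at 4 min, no MDJ1 difference passed the threshold. At 16 min the difference between media was -0.91 (adjusted p = 0.0756). It was -1.24 within the third slide series, without overlap, and -1.15 with slide series as a block (adjusted p = 0.00198). At 64 min in YPD every spot was left out, the values with all spots being -0.23, -0.32 and -0.36. How far the early course of MDJ1 follows the slide series was not tested.

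**Figure D4:**
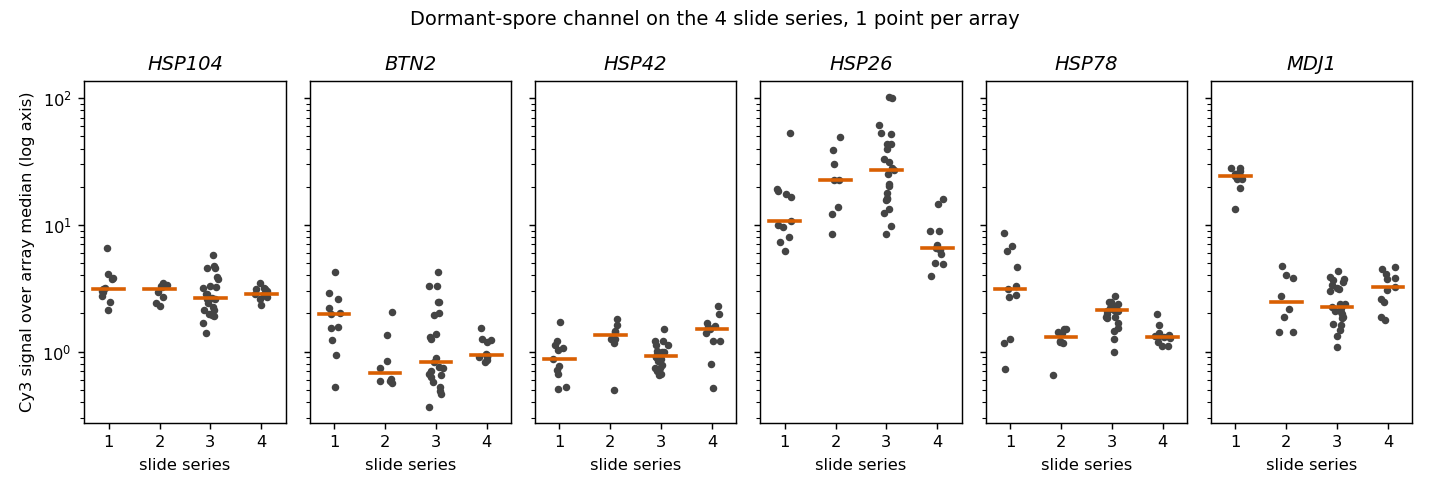
Cy3 signal (dormant-spore RNA) of each gene over the median of its array, on a log axis, by slide series, 1 point per array with the median as a bar. The scaling serves to compare arrays within a gene, not genes with each other. MDJ1 lies at 13.4 to 28.1 on the first series and at 4.74 or below on the others, while the ranges of the first series and the others overlap for the other 5 genes.

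Counted over the members, the calls against 0 min in YPD were 3 of 6, 3 of 6, 4 of 5, 4 of 6 and 4 of 6 at the 5 late times in order, where 48.9%, 45.6%, 51.6%, 46.6% and 44.4% of all genes were called. In glucose they were 1, 0, 3, 2 and 3 of 6, where 18%, 19%, 24.3%, 25.8% and 25.8% of all genes were called. Between media the calls from 0 to 128 min were 0, 2, 1, 1, 2 and 2 of 6, 3 of 5 at 64 min, and 1 and 1 of 6. The shares of all genes called were 0.0325%, 8.95%, 3.55%, 19.9%, 22.8%, 9.63%, 20.2%, 16.4% and 9.87%. The calls up to 16 min are not independent of the choice of the genes. At 0 min the intervals of the differences between media lay within 1.32 of 0 for all 6.

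Across the 18 group means HSP104 and HSP26 correlated at 0.886, and HSP26 and HSP42 at -0.758. BTN2 correlated at 0.36 with HSP104, 0.16 with HSP42 and 0.05 with HSP26. These are descriptions over groups that share the dormant-spore reference and, within a medium, the same course of time. Among genes with a value in every group and an SD of at least 0.5 over the group means, the profile of BTN2 was most like those of YNR014W (0.942) and PDR1 (0.892), a regulator of drug resistance. HSP104 was most like GAC1 (0.973), a regulator of glycogen synthesis, and SAS4 (0.969), of a silencing complex. HSP26 was most like BDH2 (0.986) and SDS24 (0.978), and HSP42 was most like FCF2 (0.933) and RRP45 (0.928), both of ribosomal RNA processing. HSP78 was most like RCM1 (0.802) and YGR272C (0.80) with a weaker likeness, and MDJ1, without a value in every group, was not compared.

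CUR1, the paralog of BTN2 that directs misfolded proteins to the nucleus, was also high in the first minutes. Its Cy5 signal was above background on all 3 YPD arrays at 4 min and its Cy3 signal on none, so its level is given as an approximate bound. In YPD it was at least about 5.13-fold that of dormant spores at 4 min and at least about 3.23-fold at 8 min. In glucose it was at least about 1.77-fold at 4 min, 3.52-fold at 8 min and 2.35-fold at 16 min. The Cy3 signal of CUR1 was low on the first slide series, shifted by -2.10 on the log2 scale. That series holds all YPD arrays at 8 min, and the part of this shift in the CUR1 levels was not tested.

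The cytosolic partners of Hsp104, a list of 11 Hsp70, J-domain and exchange factor genes, also stood above dormant spores early. At 4 min in YPD their median log2 ratio was 1.32, with 6 of 10 measured genes at or above 2-fold, against 5.19% of all genes, and in glucose it was 0.22 with none. Between media at 4 min 5 of 10 were higher in YPD and none lower, where 6.78% of all genes were called higher: YDJ1 by 1.68, APJ1 by 1.61 and SIS1 by 1.41, which encode J-domain proteins, SSE1, an exchange factor gene, by 1.23, and SSA1, a main cytosolic Hsp70 gene, by 1.13. For the change from 0 min 1 of 10 was called at that time, YDJ1, larger in YPD by 1.94, where 1.14% of all genes were called higher. This list was chosen when a higher mean of a larger chaperone list in YPD at 4 min was already known. Its counts and differences at 4 min are therefore a description. At 8 min the glucose median was 1.03, with FES1, another exchange factor gene, highest at 2.46 ± 0.76 and SNL1 lowest at 0.03 ± 0.53 (SD). In YPD at 8 min FES1 was again highest at 2.05 ± 0.71 and APJ1 lowest at 0.21 ± 0.08. At 128 min in YPD SSE1 and YDJ1 remained higher than at 0 min, by 1.15 and 1.43, and SSA1 and SSA3 were lower, with differences of -2.39 and -2.22. In glucose SSE1 (1.86) and SSA3 (-2.18) were the ends of the list at 128 min. APJ1, SIS1, YDJ1 and SNL1 also had a high Cy3 signal on the first slide series, shifted by 1.51 to 2.06 on the log2 scale, and the part of this in their values at 0 and 8 min in YPD and on 1 glucose array at 4 min, all of that series, was not tested.

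**Figure D5:**
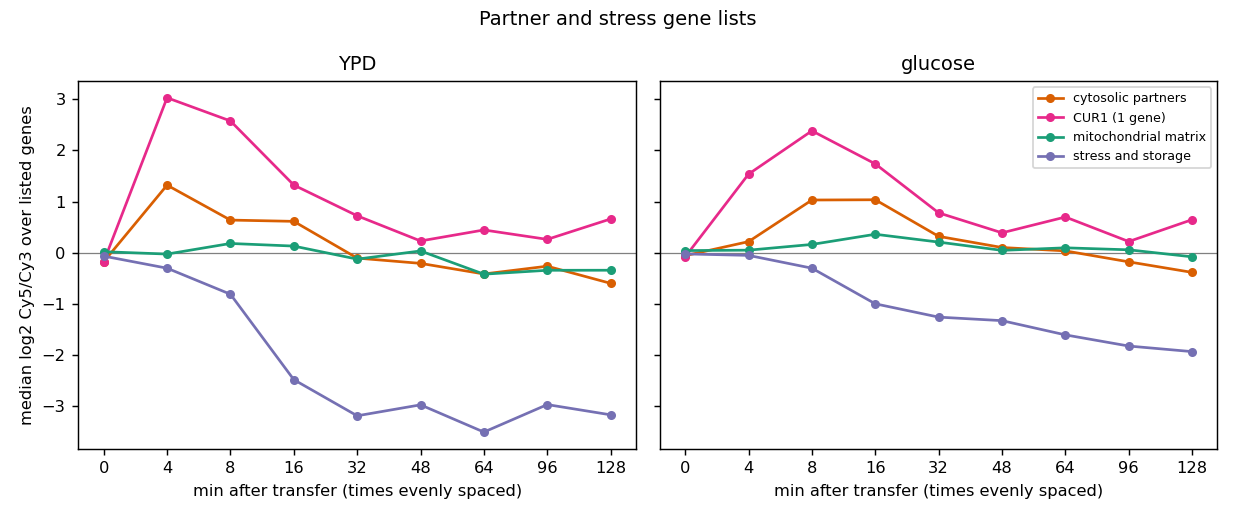
Median log2 Cy5/Cy3 over the measured genes of 4 lists at the 9 times (evenly spaced) in YPD (left) and glucose (right). The cytosolic partners of Hsp104 peak at 1.32 at 4 min in YPD, the mitochondrial matrix genes stay between -0.42 and 0.36, and the stress and storage genes stand between -2.97 and -3.50 in YPD from 32 min on. CUR1 is 1 gene whose Cy3 signal was near background.

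The partners of Hsp78 and Mdj1 in the mitochondrial matrix, a list of 13 genes, had median log2 ratios of -0.02 in YPD and 0.05 in glucose at 4 min. Between media at 4 min 1 of 13 was called, HSP60, the matrix chaperonin gene, higher in YPD by 0.88. This list too was chosen when a higher chaperone mean in YPD at 4 min was known, so that difference is a description. SSC1, the matrix Hsp70 gene, stood at 1.30 ± 0.14 (SD, n = 3) at 4 min in YPD and at 0.51 on the 1 glucose array with a value. At 8 min ECM10 was highest in YPD (1.62) and YTA12 lowest (-0.85), while SSC1 (1.63, 1 array) and JAC1 (-0.17) were the ends in glucose. At 128 min in YPD 4 of 13 were lower than at 0 min and 1, MCX1, was higher, by 0.72, where 25.8% of all genes were called lower and 18.6% higher, and in glucose 1 was lower, where 14.4% of all genes were, and none higher. The Cy3 signal of MCX1 was shifted by 1.47 on the log2 scale on the first slide series, which holds YPD at 0 min. The part of this in its difference was not tested. The ends by log2 ratio at 128 min were MCX1 (0.95) and SSQ1 (-1.41) in YPD and HSP10 (0.75) and SSQ1 (-1.05) in glucose.

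The falls of HSP26 and HSP104 were shared with other stress and storage genes. This list was chosen with earlier results of these data known, so its counts are a description. Slide series and day as a block were not applied to the list counts. Of 11 listed, 10 are on both layouts, and in YPD all 10 were lower than at 0 min at each of the 5 late times, where 25.8% to 28.6% of all genes were called lower. Their median difference was -3.05 at 32 min and -2.96 at 128 min, and in glucose 5, 5, 7, 8 and 8 of 10 were lower at the 5 late times, where 9.53%, 10.4%, 12.8%, 14% and 14.4% of all genes were called lower, with a median of -1.91 at 128 min. At 128 min in YPD HSP12, which encodes a small membrane-binding stress protein, stood at -7.73 ± 0.39 (SD, n = 2), and TPS1, a trehalose synthesis gene, was the least low at -0.91 ± 0.21. In glucose the same genes were the ends, at -3.93 ± 0.29 and -0.29 ± 0.28. At 8 min TPS1 was the highest in both media (0.89 in YPD and 0.64 in glucose), GPH1, of glycogen breakdown, was the lowest in YPD (-1.28) and SOL4 was the lowest in glucose (-0.78).

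The genes of 3 known regulators of these chaperones were measured on the same arrays. HSF1, the heat shock factor gene, stood at -0.23 ± 0.11 (SD, n = 2) at 8 min in YPD, when BTN2 was at 3.98. Against 0 min its difference at 128 min was -0.76 (limma, adjusted p = 0.000265). MSN2, a general stress factor gene, stood at 1.41 ± 0.17 in YPD and 1.26 ± 0.64 in glucose at 8 min. Its Cy3 signal was low on the first slide series, shifted by -2.46 on the log2 scale (rank 5437 of 6218 genes). That series holds all YPD arrays at 0 and 8 min, and the part of this shift in the MSN2 values and differences was not tested. At 128 min in YPD all 3 regulators, with MSN4, were lower than at 0 min, where 25.8% of all genes were, and in glucose, where 14.4% were, none was called. The spore gene SPS100 stood at -6.20 on 1 array in YPD and at -4.53 ± 0.36 in glucose at 128 min. The histone gene HTA1 had no Cy3 signal above background in YPD at that time. Its level there was at least about 3.31-fold that of dormant spores, an approximate bound. These 2 genes are the extremes of their lists, which did not move as a whole. At 128 min in YPD the 10 spore genes had a median of -0.08, with 3 at least 2-fold down. The 6 cell cycle genes had a median of -0.37 there, with CLB2 at -1.20.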

How the data were processed

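RNA of germinating spores was measured on 53 spotted arrays in 2 colours, 1 sample each. The deposited intensity values are spot and local background means and medians per dye, quantified by the authors with ImaGene 6.0.1 per the file headers, without normalization. The deposited log2 table holds 1 ratio per gene and time, normalized and averaged by the authors, and was used only as an alternative. Spots with a manual or poor flag were left out (median 13.1% in YPD and 13.6% in glucose). Background was corrected by normexp (offset 50), each array was normalized by loess, and spots of a gene were averaged. All 18 groups entered 1 linear model in limma 3.58.1 (R 4.3.3), with Benjamini-Hochberg adjustment over all genes per contrast and a threshold of 0.05. Late times were compared with 0 min, media at each time, and changes from 0 min between media. A group has 2 or 3 arrays, which limits the precision. Median signal over background in Cy3 was 1.34 to 2.44.

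The gene names are those of the arrays, and 5663 of 6218 matched RefSeq. The members and all gene lists were chosen with earlier results of these data known, so counts of calls over a list are a description. Named besides the members are, for each member, the 2 genes of highest correlation over the 18 group means, and of each list the highest and lowest gene at 8 and 128 min. Other named genes were chosen after their values were seen. The model was tested on simulated data of 6218 genes: of genes changed 2-fold it recovered 59% between media at 4 min, 67% against 0 min at 128 min in YPD and 22% for the difference of changes at 4 min, and of those changed 4-fold 97%, 98% and 85.9%. The simulated noise was independent between arrays, without day, slide series or layout effects, so these shares describe a simpler setting than the data. Same-numbered arrays of different times had a median correlation of 0.017 in YPD and 0.097 in glucose, over 0.1 in 39 of 108 and 50 of 100 pairs (medians for other numbers -0.006 and -0.072), and since not every pair passed 0.1 the replicate numbers were not taken as pairs. Alternatives covered background, normalization, spots, genes tested, arrays and batches. No sequence is shown.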

Additional observations from a re-analysis of the deposited data

Results flagged for a closer look

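The change of BTN2 from 0 to 4 min was larger in YPD than in glucose by 3.015 on the log2 scale (SE 0.421). At 4 min BTN2 was above its 0 min values on 3 of 3 arrays in both media. The arrays at 0 and 4 min in YPD belong to different slide series, and no slide series holds both media at 4 min, so a value within a series cannot be had. BTN2 was chosen with its early YPD values known, so this difference is a description and supports nothing further.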

How the results depend on the processing

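The BTN2 mean at 4 min in YPD, 4.28, was 3.03 without background subtraction, 4.58 with plain subtraction, 3.95 with print-tip loess, 3.65 with median intensities and 3.03 in the authors' log2 table. Calls against 0 min in YPD (18) were 6 of 23 with quantification day as a block, and 15 to 21 with 1 replicate left out. Those in glucose (9) were 16 with the replicate block, 2 with day as a block, 4 with slide series as a block, 14 without the arrays of the second layout and 0 to 19 with 1 replicate left out (0 without glucose replicate 2, 1 without glucose replicate 1, 19 without glucose replicate 3). Calls between media (13) were 8 with print-tip loess, 3 of 35 with day as a block, 8 with day as a random block and 7 to 19 with 1 replicate left out. For the change from 0 min between media (1 call) the counts were 4 with print-tip loess, 7 with only the groups of the contrast, 2 with the replicate block, 0 of 29 with day as a block, 2 with layout as a block, 3 with slide series as a block, 3 without the second layout and 1 to 3 with 1 replicate left out. The slide series and second layout alternatives were chosen after seeing the data. The replicate block called HSP42 in glucose at 32, 64, 96 and 128 min (1.171, 1.287, 1.26 and 1.304, adjusted p = 0.0099, 0.00356, 0.004 and 0.0031), which were not called without it. BTN2 at 48 min in YPD against 0 min reversed with day as a block (-0.081, adjusted p = 0.96). Of 1325 alternative values of the other differences compared, 1127 kept direction and, where there was a test, side of the threshold. Of the rest 145 lost the call, 52 gained one and 1 reversed. Values of the authors' log2 table have no test and were compared by direction alone. Not every lost call is named above. The causes were not tested. Contrasts between media have no replicate block value, since the block lies within a medium, and day as a block could not be fitted at 4, 16 and 32 min. The Cy3 signal of HSP42 was above background on 30 arrays at 3 SD against 46 at 2 SD.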
